A study of Mus musculus with 67 samples.

Results

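The comparison set ribosome-bound RNA pulled out of whole brain with an anti-HA antibody beside the RNA that a mouse IgG1 control antibody recovered, both in mice given lipopolysaccharide (LPS), a bacterial cell wall product that triggers inflammation. The libraries were taken by their column names in the count table of the LPS experiment, and they were 8 of the 67 libraries of the series, 4 pull-down and 4 IgG1. All mice carried CX3CR1CreER/WT RLP22HA/HA on C57BL/6J, with the inducible Cre driven from the Cx3cr1 locus, which is active in microglia and other macrophages of the brain. Every mouse had received tamoxifen by gavage, 4 doses of 5 mg given every other day from 4 to 6 weeks of age. LPS was injected into the peritoneum at 2.5 mg/kg, and the brain was taken after 3 h and frozen before homogenisation. Mice given PBS in place of LPS, with the same genotype and tamoxifen, supplied 3 pull-down and 3 IgG1 libraries for comparison. Replicates were individual mice per the design text. As stated, the anti-HA antibody was used at 125 µg and the IgG1 at 1 µg, both for 4 h, so the amounts were not matched.

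In RiboTag mice, Cre recombinase switches the ribosomal protein Rpl22 to a form with an HA tag, so that ribosomes of cells that once expressed Cre can be pulled out of a homogenate together with the messages they translate. Microglia are the resident macrophages of the brain. In the resting state they express a set of homeostatic genes, among them Tmem119, P2ry12 and Cx3cr1, and they sense LPS through the Toll-like receptor Tlr4 and its partner Cd14, which leads to activation of the transcription factor NF-kB and to secretion of cytokines and chemokines. Part of the RNA in any pull-down sticks without a tag. A gene above IgG1 is therefore taken as expressed in tagged cells, while a gene at or below IgG1 cannot be told from the background of whole-brain RNA.

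Total counts ran from 1131402 to 3513317 in the LPS pull-downs and from 610257 to 1129597 in LPS IgG1, from 1425412 to 1636479 in PBS pull-downs and from 824229 to 1183677 in PBS IgG1. Levels are given as CPM, counts relative to a common library size, after trimmed mean (TMM) scaling. Enrichment is the log2 difference of pull-down minus IgG1 with its standard error (SE) from the edgeR quasi-likelihood fit, and a gene was called at a Benjamini-Hochberg adjusted p under 0.05 over 11444 genes tested. In bulk samples, fewer cells of a type and less RNA per cell cannot be told apart. The amount of RNA recovered is not used here, so that enrichment is a share of a library relative to a share of another, not an amount per brain.

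The tagged gene itself, Rpl22, stood at 153, 153, 154 and 263 CPM in the LPS pull-downs and at 59.6, 73.8, 88.6 and 82.8 CPM in LPS IgG1. All pull-down libraries were above all IgG1 libraries, with an enrichment of 1.24 ± 0.18. Counts per gene do not separate the tagged from the untagged form, and the enrichment after PBS was 0.99, with a difference between treatments of 0.25 (adjusted p = 0.663). Cx3cr1, the fractalkine receptor whose locus drives the Cre, stood at 261, 250, 294 and 337 CPM in LPS pull-downs against 44.7, 42.5, 34.1 and 47.3 CPM in IgG1. The groups lay far apart and the enrichment was 2.73 ± 0.17.

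Of the 11444 genes tested, 4305 (37.6%) were higher and 4044 (35.3%) lower in pull-down than in IgG1 after LPS, so that 73% were called in either direction. In 3925 genes (34.3%) every pull-down library lay above every IgG1 library, and in 3464 (30.3%) every one lay below. The shares of 37.6% higher and 35.3% lower are the reference for the counts of list members below. The median over all genes was 0.02. The split depended on the scaling. With DESeq2 size factors, 31.9% of called genes were higher against 51.6% with TMM, and the median gene stood at -0.64. With total counts the share was 34.4% and the median -0.54, and with the DESeq2 Wald test the share was 29.6%. After PBS, 3776 genes (33%) were higher and 3658 (32%) lower, 65% in either direction, with 50.8% of called genes higher, or 32.2% with DESeq2 size factors, 35.2% with total counts and 31.1% with the Wald test. No library was shared between the comparisons of either treatment. Of the genes higher after LPS, 3238 were also higher after PBS, which is 75.2% of the LPS list and 85.8% of the PBS list.

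**Figure D1:**
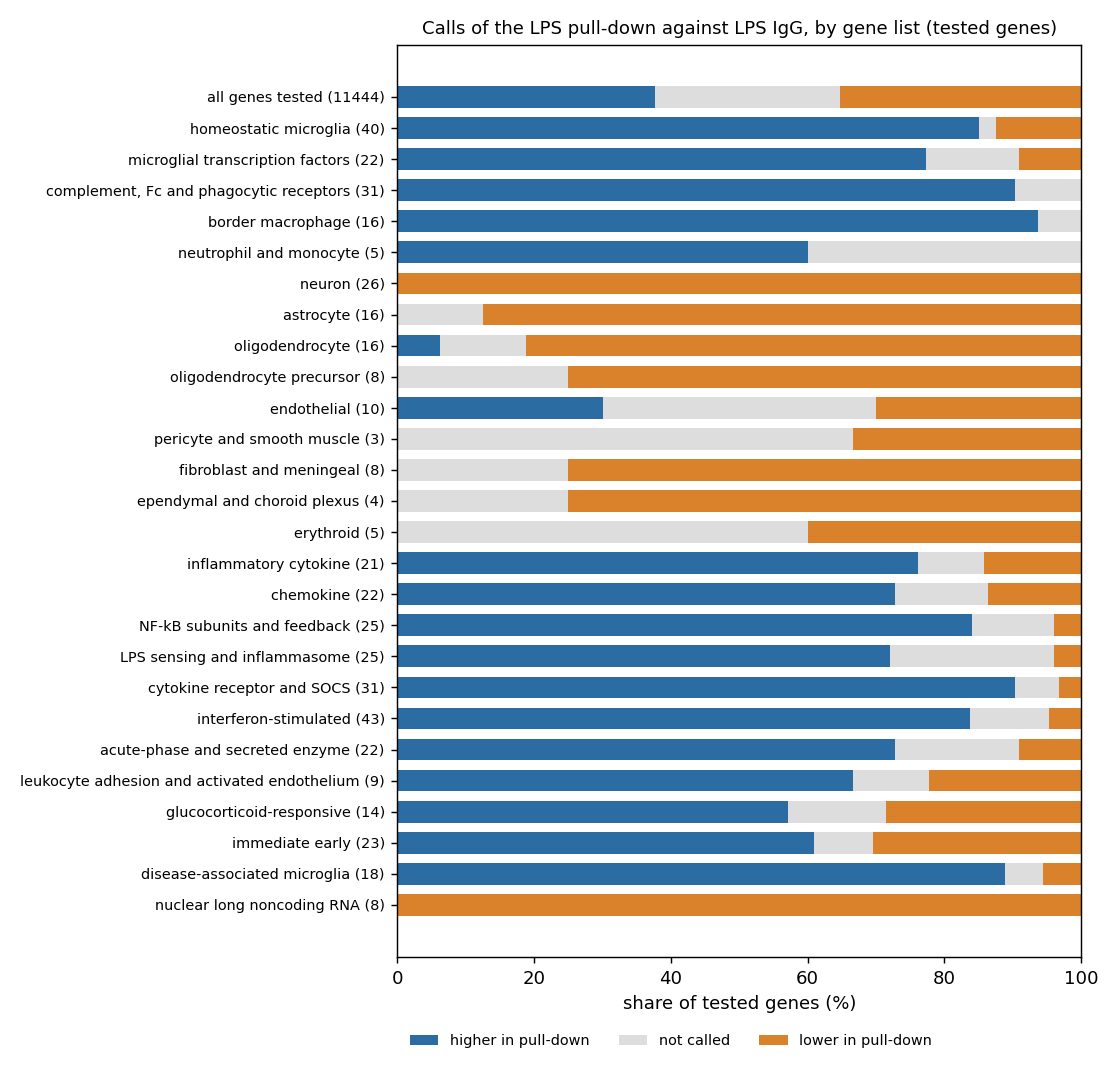
Stacked bars give the percent of tested genes that were higher in pull-down than in IgG1, not called, or lower after LPS. Of the 27 gene lists all are shown except the lymphocyte list, which had 1 gene tested. The bar over all 11444 genes is on top. Higher genes make up most of the lists of microglia and border macrophages and of several lists of the LPS response, such as cytokine receptors (28 of 31), while the 26 neuronal genes are all lower.

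Genes of neurons and of other glia were lower in the pull-down. All 26 neuronal genes tested were lower, with a median of -1.40, and in all 26 every pull-down library lay below every IgG1 library. Over all genes 35.3% were lower and 30.3% lay below in every library. Snap25, a synaptic vesicle fusion protein, stood at 178, 99.4, 141 and 83.2 CPM in pull-down and 470, 303, 379 and 203 CPM in IgG1, an enrichment of -1.40 ± 0.40. Thus the pull-down libraries still held neuronal RNA, with summed levels of the neuronal list of 5850 to 7330 CPM against 14700 to 18500 CPM in IgG1.

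Astrocyte genes were lower in 14 of 16 tested and oligodendrocyte precursor genes in 6 of 8. The water channel Aqp4 of astrocytes was at -2.91, the glutamate transporter Slc1a2 at -1.94, and Pdgfra, the growth factor receptor of precursors, at -2.93. Of 16 oligodendrocyte genes 13 were lower and 1 was higher, the iron carrier Trf. Trf stood at 1410, 1500, 1320 and 1180 CPM in pull-down and at 177, 119, 162 and 106 CPM in IgG1, well separated, with an enrichment of 3.27.

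Blood and vessel markers were mixed. Of 10 endothelial genes tested 3 were higher, namely the adhesion molecule Pecam1 (3.17), the TGF-beta co-receptor Eng (3.17) and the surface glycoprotein Bsg (1.44), and 3 were lower, including the thyroid hormone transporter Slco1c1 (-3.67). Over all genes tested 37.6% were higher and 35.3% lower, so that these endothelial counts were near the shares of all genes. The count of lower endothelial genes was 1 without LPS pull-down 1 or without LPS pull-down 3, and 7 with DESeq2 size factors or total counts. Of 24 neutrophil and monocyte genes only 5 passed the filter on low counts, and S100a8, Ly6g and Ccr2 did not. Higher among the 5 were Mmp9, a matrix protease, Csf3r, the receptor of granulocyte growth factor (3.12), and Plac8 (1.59). The call of Plac8 was lost with DESeq2 size factors (0.96), without LPS pull-down 4 (1.21) and without LPS IgG1 1 (1.29) or 2 (1.15). S100a9, a granule protein of neutrophils, was not called (-0.13 ± 0.52). The only lymphocyte gene that passed the filter was the B cell receptor chain Cd79b, at 1.93 ± 0.47. Summed over their lists, neutrophil and monocyte genes reached 164 to 212 CPM in pull-down and 20.6 to 75 CPM in IgG1, and lymphocyte genes 15.1 to 26 against 3.55 to 13.6 CPM. After PBS the pull-down sums were higher, at 237 to 266 CPM for neutrophil and monocyte genes and 52.6 to 62.1 CPM for lymphocyte genes.

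Most homeostatic microglial genes stayed above background during inflammation. Of 40 genes tested 34 were higher in pull-down after LPS and 5 lower, beside 37.6% and 35.3% of all genes, with a median enrichment of 3.31. After PBS 37 were higher and 1 lower, beside 33% and 32% of all genes, with a median of 4.15. After LPS the same 34 of 40 lay above IgG1 in every library, beside 34.3% of all genes. Summed over the list, levels ran from 31700 to 36900 CPM in LPS pull-downs and from 2680 to 3970 CPM in LPS IgG1, and from 41900 to 46300 CPM in PBS pull-downs and 2720 to 3310 CPM in PBS IgG1. The count of lower genes was 3 without LPS pull-down 1.

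Among the genes that kept a high enrichment, Tmem119, a membrane protein of microglia, stood at 2590, 3100, 2470 and 3140 CPM in LPS pull-downs and at 48.9, 47.3, 132 and 74.7 CPM in LPS IgG1. The lowest pull-down library was far above the highest IgG1 library, with an enrichment of 5.28 ± 0.22 after LPS. After PBS it was 5.94 ± 0.26, and the difference of -0.67 was not called (adjusted p = 0.177). Csf1r, the growth factor receptor on which microglia depend, was enriched by 4.81 ± 0.19. High values were also measured for the secreted protein Olfml3 (5.33), the selectin ligand Selplg (5.13), the nucleotide receptor P2ry6 (5.76), the crystallin Crybb1 (6.03) and the leukotriene synthase Ltc4s (6.21 ± 0.22). The difference between treatments was not called for Csf1r (-0.25) or Selplg (-0.24).

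At the other end, 3 homeostatic genes were enriched after PBS and not after LPS. P2ry12, the nucleotide receptor that guides microglial processes, stood at 72.8, 60.9, 54.3 and 99.4 CPM in LPS pull-downs and at 79.4, 85.8, 104 and 111 CPM in LPS IgG1. These groups overlapped, while after PBS the pull-downs held 331, 266 and 273 CPM against 112, 72.5 and 137 CPM in IgG1 and were separated. Enrichment of P2ry12 was 1.42 ± 0.21 after PBS and -0.42 ± 0.19 after LPS (adjusted p = 0.0458, 95% interval -0.80 to -0.03). The LPS value lost its call without LPS pull-down 1 (-0.44), 2 (-0.36) or 3 (-0.32) and without LPS IgG1 3 (-0.40) or 4 (-0.35), so that only its place at or just below background was common to these settings.

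Gpr34, a receptor for lysophosphatidylserine, stood at 1.98, 2.48, 2.72 and 5.4 CPM in LPS pull-downs against 10.6, 17.6, 19.1 and 13.3 CPM in IgG1. Every pull-down library lay below every IgG1 library, at -2.37 ± 0.37 (adjusted p = 6.09e-08). In PBS mice pull-downs held 37.3, 23 and 54.3 CPM against 17.6, 16.8 and 30.3 CPM, with overlap and an enrichment of 0.80 ± 0.26. That PBS call was lost with DESeq2 size factors (0.28), with total counts (0.36), without PBS pull-down 3 (0.46) and without PBS IgG1 1 (0.64).

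Rtn4rl1, a receptor of the Nogo family, stood at 89, 57.8, 53 and 52.9 CPM in LPS pull-downs and at 113, 104, 119 and 111 CPM in IgG1. All LPS pull-downs were below all IgG1 libraries, at -0.78 ± 0.20 (adjusted p = 7.25e-04), and the highest of them, library 1, stood apart from the other 3. PBS pull-downs held 331, 371 and 379 CPM against 97.9, 120 and 113 CPM, an enrichment of 1.71 ± 0.22. The other genes of the list lower after LPS were the GTPase regulator Arhgap5 (-2.67 ± 0.38), which was also lower after PBS (-1.34), and Nav3 (-1.27, 95% interval -2.17 to -0.37), whose call was lost without LPS pull-down 1 (-0.89). Nrip1, a nuclear receptor corepressor, was the remaining gene and was not called (0.45 ± 0.33, adjusted p = 0.206).

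**Figure D2:**
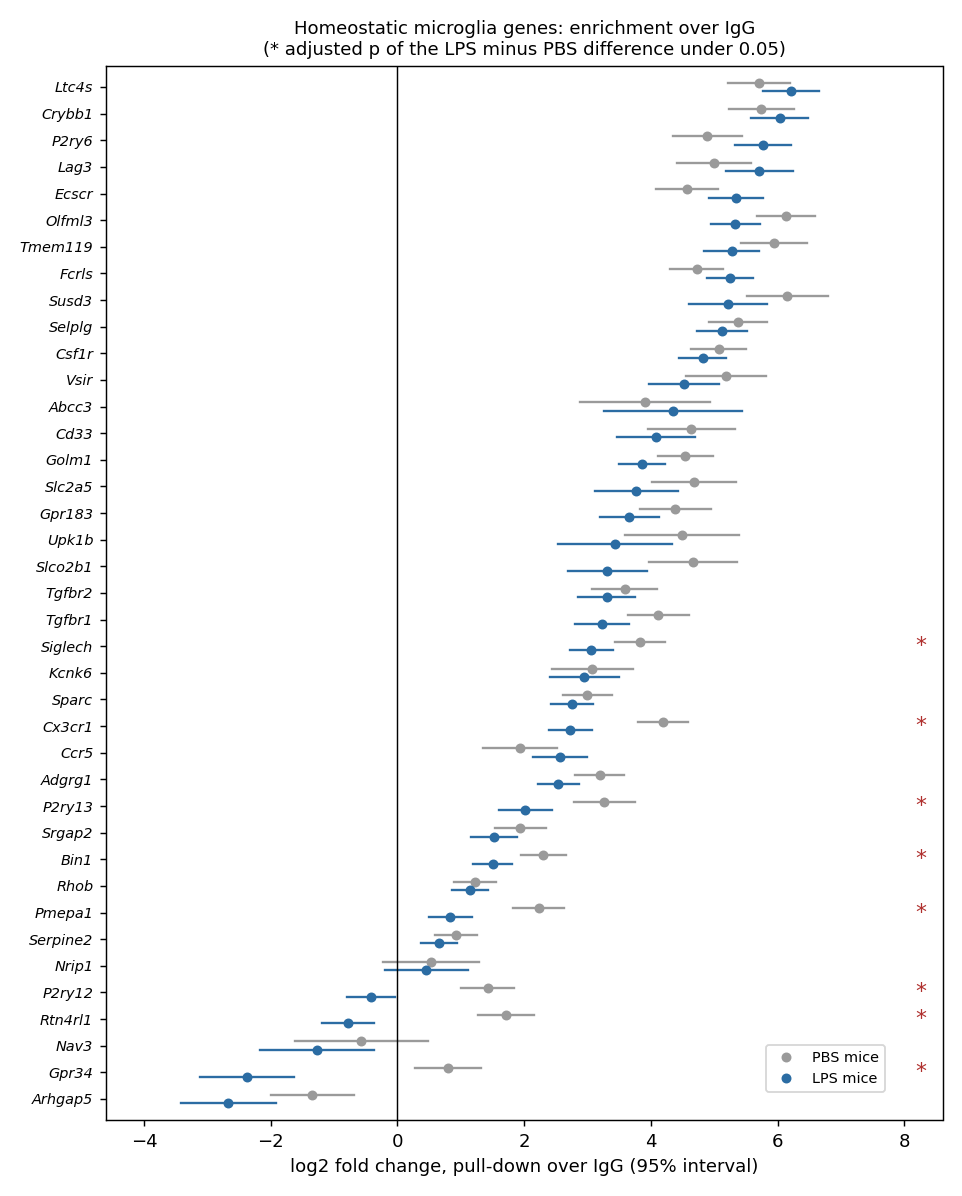
Each of 39 of the 40 homeostatic microglial genes tested has its log2 enrichment over IgG1 with the 95% interval, in blue after LPS (4 against 4 libraries) and in grey after PBS (3 against 3), and a star marks a called difference between treatments. Gpr34, Rtn4rl1 and P2ry12 lie above 0 after PBS and below 0 after LPS, while genes such as Tmem119 keep values above 5 in both.

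The enrichment itself was compared between treatments as an interaction term, which uses the same LPS libraries. Of all genes tested, 641 (5.6%) had a higher and 341 (2.98%) a lower enrichment after LPS, 8.58% in either direction. Of these called genes 65.3% were higher with TMM, 45.7% with DESeq2 size factors, 47.5% with total counts and 47.6% with the DESeq2 Wald test. In the homeostatic list 0 were higher and 8 of 40 lower, with a median of -0.66. The count of lower genes was 13 with DESeq2 size factors and with the Wald test.

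The called homeostatic genes were Gpr34 (-3.17 ± 0.45), Rtn4rl1 (-2.49 ± 0.30), P2ry12 (-1.84 ± 0.28), Cx3cr1, Pmepa1, P2ry13, Bin1 and Siglech. Cx3cr1 was enriched by 4.19 ± 0.20 after PBS, where pull-downs held 1080, 894 and 985 CPM against 47.3, 43.1 and 70.7 CPM in IgG1. Its difference was -1.46 ± 0.26 (adjusted p = 3.51e-05), and it remained well above background after LPS. The nucleotide receptor P2ry13 (2.02 ± 0.21 after LPS, a difference of -1.25 ± 0.33) and the lectin Siglech (3.06 after LPS) also lay above background after LPS.

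Some of these values were less firm. Pmepa1, an inhibitor of TGF-beta signalling, was enriched by 0.83 ± 0.17 after LPS with TMM, and not called with DESeq2 size factors (0.17) or total counts (0.27), while its difference was -1.40 ± 0.26. The difference for the membrane-bending protein Bin1 was -0.80 ± 0.23 and lost its call without PBS IgG1 1 (-0.75) or 3 (-0.69). That for Siglech was -0.77 ± 0.26 and lost it without any of 9 of the 14 libraries, with values of -0.63 to -0.78. Directly between pull-downs, 19 of the 40 homeostatic genes were lower and 4 higher after LPS than after PBS, beside 11% lower and 15.5% higher of all genes tested. Between IgG1 libraries 0 of the 40 were called in either direction, beside 1% higher and 0.149% lower of all genes.

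Transcription factors of microglia were higher in 17 of 22 tested and lower in 2, with a median of 2.22 against 2.75 after PBS. Spi1, which encodes the myeloid factor PU.1, was enriched by 5.27, Irf8 by 5.00 and Runx1 by 4.84. In the list, 14 were higher with DESeq2 size factors, and 1 was lower without LPS pull-down 1 or without LPS IgG1 1 or 2. Sall1, a repressor that maintains microglial identity, stood at 23.1, 22.4, 25.1 and 17.3 CPM in LPS pull-downs and at 10.6, 8.02, 16.4 and 5.91 CPM in IgG1. The groups were separated, at 1.21 ± 0.27, although the call was lost with DESeq2 size factors (0.56) and the Wald test (0.57). After PBS its pull-downs held 131, 129 and 104 CPM and the enrichment was 3.16, a difference of -1.95 ± 0.39 (adjusted p = 3.04e-04).

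Maf, a factor of resident macrophages, held 11.5, 4.97, 17.7 and 10.8 CPM in LPS pull-downs and 9.93, 11.2, 8.18 and 11.8 CPM in IgG1. These groups overlapped, at 0.09 ± 0.30 (95% interval -0.51 to 0.70), while its enrichment after PBS was 1.80 and the difference -1.71 ± 0.42. Mef2c was below background in both treatments, at -1.79 ± 0.17 after LPS and -0.91 after PBS, with pull-downs of 57.7, 52.2, 73.3 and 90.8 CPM against 228, 236, 273 and 197 CPM after LPS. It is also expressed in neurons. Its difference of -0.88 ± 0.24 lost the call without PBS IgG1 3 (-0.72).

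Klf4, a Kruppel-like factor of monocytes and macrophages, moved the other way. It stood at 41.2, 43.5, 36.7 and 32.4 CPM in LPS pull-downs and at 10.6, 9.62, 6.82 and 4.44 CPM in IgG1, with no overlap, at 2.27 ± 0.27. After PBS it was at background (-0.37 ± 0.41), and the difference was 2.64 ± 0.50. Sall3 was enriched by 2.88 after LPS, and Bhlhe41 was not called (0.32).

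Complement, Fc receptor and phagocytic genes were higher in 28 of 31 and lower in 0, with a median of 4.43 after LPS against 30 higher and a median of 4.44 after PBS. The enrichment of 2 was higher and of 2 lower after LPS than after PBS, beside 5.6% and 2.98% of all genes. These counts were 1 and 1 without PBS IgG1 1, 2 and 1 without PBS IgG1 2, and 0 and 3 without PBS IgG1 3. C1qa, a chain of the first complement component, stood at 14500, 22300, 18600 and 22700 CPM in LPS pull-downs and 291, 363, 629 and 235 CPM in IgG1, an enrichment of 5.70. C1qc was at 5.64, C1qb at 4.85, the lipid-sensing receptor Trem2 at 5.28, its adaptor Tyrobp at 5.45 and Aif1, the Iba1 antigen, at 5.64. Not called were the phagocytic kinase Mertk (-0.02 ± 0.57), whose interval is wide, and the tetraspanin Cd53 (0.05 ± 0.36). Gas6, a ligand of Mertk, held 252, 231, 222 and 244 CPM in pull-down and 109, 135, 125 and 115 CPM in IgG1 after LPS. It stayed above background at 0.97 ± 0.15, with a difference from PBS of -1.33 ± 0.22.

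Border macrophages, which line vessels and meninges, also carry the Cx3cr1 driver. Of 16 of their genes tested 15 were higher and 0 lower, beside 37.6% and 35.3% of all genes, with a median of 4.63 against 4.97 after PBS. In enrichment 0 of the 16 differed between treatments by the edgeR test, beside 8.58% of all genes, so that this count was near that share. The chemokine Pf4 stood at 376, 371, 373 and 304 CPM in LPS pull-downs and at 2.13, 2.41, 2.73 and 3.7 CPM in IgG1, an enrichment of 6.96 ± 0.25. The mannose receptor Mrc1 (4.11), the haemoglobin scavenger receptor Cd163 (4.66), the folate receptor Folr2 (5.29) and the scavenger receptor Stab1 (4.60) were enriched too. Lyve1, the hyaluronan receptor of perivascular macrophages, had so few IgG1 reads that its ratio of 180 had a 95% counting interval of 32.1 to 7150. The summed level of the list was 1070 to 1390 CPM in pull-down and 20.5 to 51.3 CPM in IgG1. Genes of microglia and of border macrophages were recovered together, and their shares of a gene that both express were not separated here.

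Most genes of the LPS sensing and inflammasome list, which also holds other Toll-like receptors and caspases, were above background in both treatments. Of 25 sensing and inflammasome genes 18 were higher and 1 lower after LPS, against 21 higher and 1 lower after PBS, with medians of 3.69 and 2.76. In enrichment 4 were higher and 1 lower after LPS, beside 5.6% and 2.98% of all genes. In enrichment 0 were lower without LPS pull-down 3 or 4, LPS IgG1 2 or 4, PBS pull-down 1 or 2, or PBS IgG1 1, 2 or 3. The count of lower genes was 0 without LPS IgG1 1 and 2 without LPS pull-down 3 or LPS IgG1 4. Cd14 stood at 1000, 1190, 1110 and 924 CPM in LPS pull-downs and at 48.9, 60.1, 39.6 and 25.9 CPM in IgG1. The separation was complete, at 4.59, and its enrichment was 1.57 above that after PBS. Tlr2 (4.43), the adaptors Myd88 (4.19) and Tirap (3.95), the inflammasome sensor Nlrp3 (4.70) and its adaptor Pycard (6.07) were enriched. The kinase Map3k8 was at 2.64, with a difference from PBS of 2.87. Tlr4 itself was at 1.10, a call lost with DESeq2 size factors (0.45), with total counts (0.55) and without LPS IgG1 1 (0.82) or 4 (0.85).

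Of 25 NF-kB subunits and feedback genes 21 were higher and 1 lower, with a median of 2.53 against 1.14 after PBS. The subunits Nfkb2 (4.20), Relb (3.96), Nfkb1 (3.86) and Rela (3.71) and the adaptors Traf1 (3.63) and Traf2 (2.93) were enriched. Nfkbia, the inhibitor that NF-kB itself induces, stood at 956, 1410, 1290 and 1090 CPM in LPS pull-downs and at 208, 277, 262 and 201 CPM in IgG1. No library overlapped, at 2.33 ± 0.17. It was also higher in IgG1 of LPS than of PBS mice, by 1.48 ± 0.19. Other feedback genes were Nfkbib (1.95), the deubiquitinase Tnfaip3 (2.53) and Tnip1 (2.35), and the deubiquitinase Cyld was lower (-1.20).

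Enrichment was higher after LPS than after PBS in 8 of 25 NF-kB genes and lower in 0, beside 5.6% and 2.98% of all genes. The count of 8 was 5 without PBS IgG1 1. Among the 8 were Nfkbib (1.60), Tnip1 (1.34), Rela (1.08) and Nfkbia (0.99).

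Promoters of the genes of these lists were read from RefSeq on the build GRCm38.p6, as the 250 bases before each start, and searched on both strands for the kappa B motif, the site NF-kB recognises. A gene was counted where any of its promoters held a match. The motif, with overlapping matches joined, was found in 2225 of 27025 genes with a promoter (8.23%). It was found in 9 of 22 matched NF-kB and feedback genes (40.9%), in 8 of 20 inflammatory cytokines (40%), in 7 of 22 chemokines (31.8%) and in 2 of 24 homeostatic genes (8.33%). The PU.1 core GAGGAAGT was found for 755 of all genes with a promoter (2.79%) and for 0 of the 24 homeostatic genes. A match is a description of the letters and not a measured site. The stretches below carry the matches in capitals, for 3 NF-kB genes enriched after LPS and for a pair of chemokines that share the motif and differ in enrichment, Cxcl10 above background and Cxcl1 not called. They lie at chr12:55492648-55492716 on the minus strand (Nfkbia), chr19:46304658-46304736 on the plus strand (Nfkb2), chr10:19015411-19015575 on the minus strand (Tnfaip3), chr5:92348943-92349088 on the minus strand (Cxcl10) and chr5:90891134-90891224 on the plus strand (Cxcl1).
Nfkbia: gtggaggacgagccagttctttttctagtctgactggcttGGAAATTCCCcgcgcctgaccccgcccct
Nfkb2: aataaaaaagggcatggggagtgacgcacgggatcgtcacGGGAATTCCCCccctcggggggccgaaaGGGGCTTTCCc
Tnfaip3: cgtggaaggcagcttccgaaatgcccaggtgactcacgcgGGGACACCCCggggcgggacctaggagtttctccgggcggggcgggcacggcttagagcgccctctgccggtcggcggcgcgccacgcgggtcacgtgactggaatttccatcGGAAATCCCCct
Cxcl10: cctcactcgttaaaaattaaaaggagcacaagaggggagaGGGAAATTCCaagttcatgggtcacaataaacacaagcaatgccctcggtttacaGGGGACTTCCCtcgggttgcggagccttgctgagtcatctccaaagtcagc
Cxcl1: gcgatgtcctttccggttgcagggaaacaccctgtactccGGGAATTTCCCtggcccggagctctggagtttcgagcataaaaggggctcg

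Inflammatory cytokines were higher in 16 of 21 tested and lower in 3, while 9 members of the list did not pass the filter on low counts. The median was 3.49 after LPS, or 2.65 with the 1 gene without IgG1 reads at its lower bound, against 0.80 after PBS. Tnf, a first cytokine of the LPS response, stood at 24.7, 51.5, 57 and 59.4 CPM in LPS pull-downs and at 1.42, 8.82, 6.82 and 0 CPM in IgG1. Il1b stood at 79.1, 133, 145 and 178 CPM against 9.93, 14.4, 6.82 and 6.65 CPM. Both were far above background in every library, at 3.55 ± 0.46 and 3.74 ± 0.31.

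Il1rn, the natural antagonist of interleukin 1, stood at 133, 214, 231 and 159 CPM in LPS pull-downs and at 2.84, 5.61, 5.46 and 0.739 CPM in IgG1, an enrichment of 5.71 ± 0.31. Ebi3 (5.47), Osm (5.43), the costimulatory receptor Cd40 (4.40), Il12b (4.37 ± 0.76) and Tgfb1 (4.55) were enriched as well. The interleukin 33 gene, Il33, which astrocytes and oligodendrocytes express, was lower (-1.39), and Il18 was not called (0.11). The count of lower cytokines was 1 without LPS pull-down 2 or without LPS IgG1 2, and 13 were higher with DESeq2 size factors.

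With few reads after PBS, the difference in enrichment was imprecise for Tnf (3.26 ± 1.55, adjusted p = 0.226), Il1b (2.94 ± 1.01, adjusted p = 0.0678) and Il1rn (4.28 ± 1.52, adjusted p = 0.0695). PBS pull-downs held 0.73, 1.97 and 2.29 CPM of Tnf and 5.11, 3.28 and 4.59 CPM of Il1b. None of these passed the edgeR test as fitted here, without a replicate block, and all were called with the DESeq2 Wald test. Leaving out LPS pull-down 1 brought a call for Il1b (3.15) and Il1rn (4.43), as did LPS IgG1 2 for Il1b (3.21) and PBS IgG1 1 for Il1rn (4.92). The only cytokine called was Il16, a chemoattractant of T cells, which was lower in enrichment by 2.06 ± 0.36. It held 38.2, 52.2, 39.4 and 57.3 CPM in LPS pull-downs and 12.8, 17.6, 32.7 and 46.6 CPM in IgG1, with overlap. Its enrichment of 0.76 ± 0.24 after LPS was not called with DESeq2 size factors (0.09), with total counts (0.19) or without LPS IgG1 1 (0.46).

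Chemokines were higher in 16 of 22 tested and lower in 3, with a median of 3.10 against 2.33 after PBS. Ccl5, which attracts T cells, stood at 1900, 2520, 2200 and 1690 CPM in LPS pull-downs and at 24.8, 48.1, 65.5 and 36.2 CPM in IgG1. The enrichment was 5.63 ± 0.32, and 2.74 ± 0.56 above that after PBS, where pull-downs held 96.4, 119 and 102 CPM. Ccl4 was at 4.67, with a difference of 2.17 ± 0.52. Cxcl16 (5.77), Ccl22 (4.76), Ccl12 (3.91) and Ccl3 (2.82) were enriched. The neuronal chemokine Cx3cl1 (-1.12) and Ccl27a (-1.15) were lower.

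Several chemokines were also high in the background. Of the 22, 6 were higher in IgG1 of LPS than of PBS mice, beside 1% of all genes. Cxcl10, an interferon-induced chemokine, stood at 958, 1460, 899 and 725 CPM in LPS pull-downs and at 284, 353, 318 and 257 CPM in IgG1, against 12.2, 43.1 and 28.7 CPM in PBS IgG1. It was separated from its background at 1.74 ± 0.31, and its background rose by 3.50 ± 0.43. Ccl2, which attracts monocytes, was enriched by 1.59 with a background higher by 2.54 ± 0.43. Cxcl2 was enriched by 1.68, a call lost with the DESeq2 Wald test.

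Csf3 and Cxcl1 were higher in IgG1 of LPS than of PBS mice and were not above background in the pull-down, so that the pull-down did not place them in tagged cells. Csf3, the granulocyte growth factor, stood at 24.1, 81.4, 47.5 and 36.7 CPM in LPS pull-downs and at 29.1, 56.9, 68.2 and 39.2 CPM in IgG1. The groups overlapped fully, at -0.00 ± 0.31 (adjusted p = 0.995, 95% interval -0.63 to 0.63), or -0.67 and called lower with DESeq2 size factors. Its IgG1 level was higher after LPS than after PBS by 4.99 ± 0.62 (adjusted p = 3.36e-06), from 0.675, 3.15 and 0.777 CPM.

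Cxcl1, a neutrophil chemokine, stood at 8.24, 22.4, 19 and 11.9 CPM in LPS pull-downs and 14.9, 27.3, 32.7 and 22.2 CPM in IgG1. With overlap between groups, its enrichment of -0.65 ± 0.34 was not called. It was called lower with DESeq2 size factors (-1.31), with total counts (-1.22), without LPS pull-down 2 (-0.92) and without LPS IgG1 1 (-0.87). Its background was higher after LPS by 3.37 ± 0.55 in the fit without a replicate block. Il6 was barely detected. Only 2 reads were counted over the pull-downs and 8 over IgG1, a ratio of 0.168 with a 95% counting interval of 0.0174 to 0.844. Its call at -2.15 (adjusted p = 0.0214) was lost without LPS pull-down 2 (-1.88) or LPS IgG1 2 (-1.95).

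**Figure D3:**
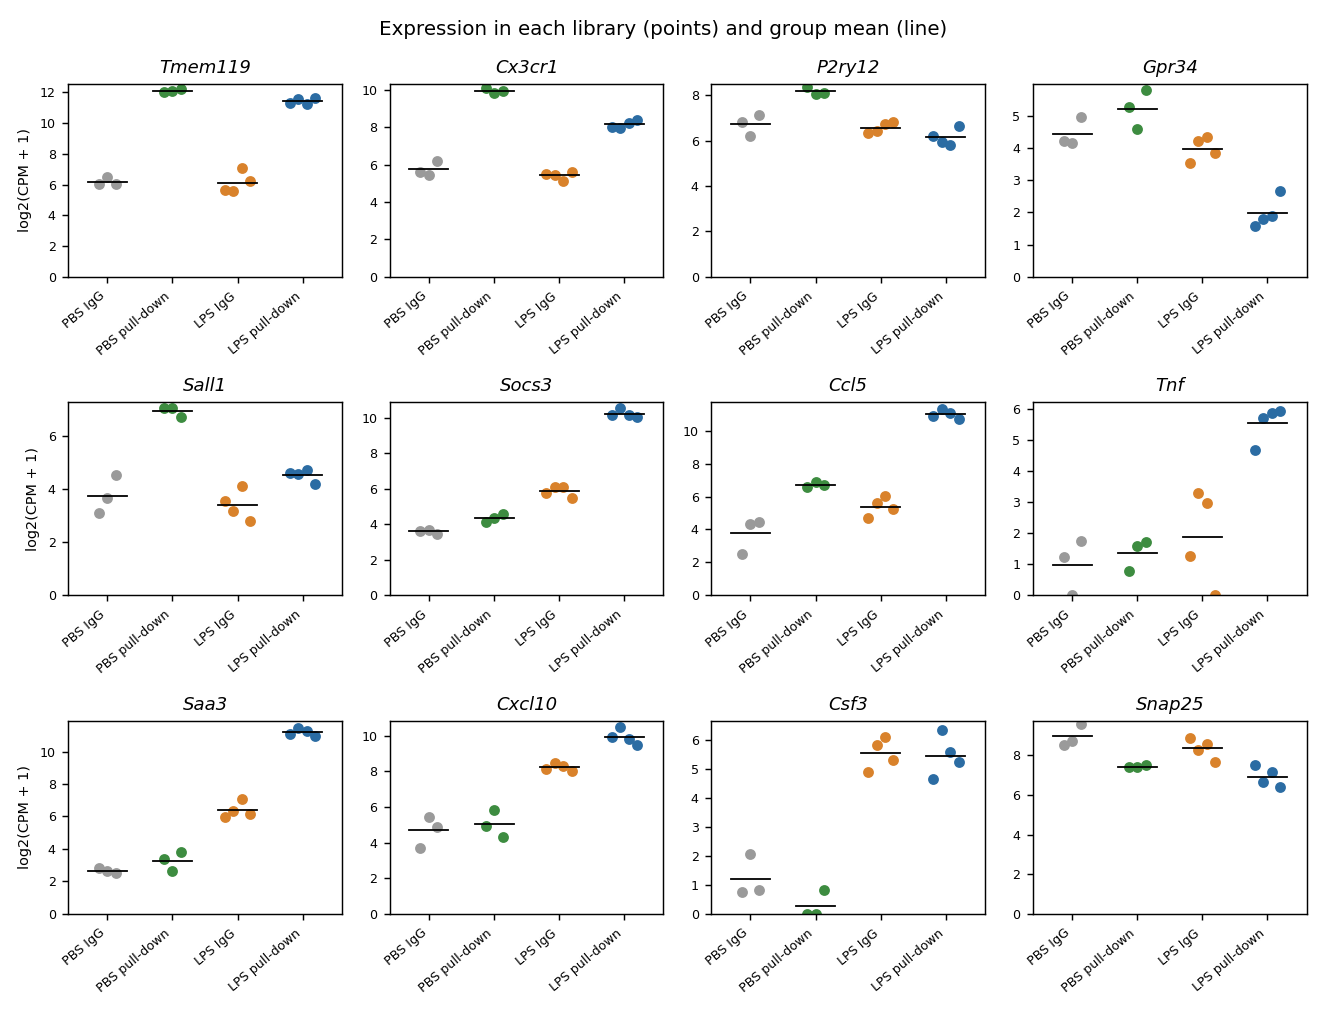
Points give log2(CPM + 1) of 12 genes in each of 14 libraries, grouped as LPS pull-down (4), LPS IgG1 (4), PBS pull-down (3) and PBS IgG1 (3). Tmem119 and Cx3cr1 stay above IgG1 in both treatments, P2ry12 and Gpr34 meet or pass below it after LPS, Socs3, Ccl5, Tnf and Saa3 are each highest in the LPS pull-downs, and Csf3 is as high in LPS IgG1 as in LPS pull-down.

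Cytokine receptors and their feedback inhibitors were mostly enriched, and many gained enrichment. Of 31 tested 28 were higher and 1 lower, with a median of 3.25 against 2.60 after PBS. Without LPS pull-down 2, 3 or 4 or without LPS IgG1 1, the count of lower genes was 0. In enrichment 11 were higher and 1 lower after LPS, beside 5.6% and 2.98% of all genes. The count of 11 was 7 without PBS IgG1 3. Socs3, an inhibitor of STAT3 signalling, stood at 1140, 1460, 1120 and 1040 CPM in LPS pull-downs and at 52.5, 68.2, 66.8 and 43.6 CPM in IgG1, while PBS pull-downs held 16.1, 19.7 and 22.9 CPM. Enrichment was 4.38 ± 0.18, which exceeded that after PBS by 3.56 ± 0.38 (adjusted p = 2.25e-10).

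Stat3 stood at 972, 1180, 1160 and 1120 CPM in pull-down and at 91.5, 79.4, 64.1 and 72.4 CPM in IgG1 after LPS. Its groups were far apart, at 3.84, with a difference from PBS of 2.07 ± 0.25. The interleukin 4 receptor Il4ra (5.51, a difference of 1.50), Socs2 (2.06, a difference of 2.47) and the kinase Jak1 (1.22, a difference of 1.07) were also called in both tests. Il17ra was enriched by 4.07. Il6st, the shared signalling chain of the interleukin 6 family, was enriched by 1.45 after LPS, less than after PBS by 1.09.

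Many interferon-stimulated genes were higher after LPS in IgG1 as well as in pull-down, and the pull-down also holds background RNA. Of 43 tested 36 were higher and 2 lower in pull-down, with a median of 2.31 against 2.16 after PBS, and 25 of the 43 were higher in IgG1 of LPS than of PBS mice, beside 1% of all genes. Directly between pull-downs 35 of the 43 were higher after LPS, beside 15.5% of all genes. In enrichment 1 was higher and 2 lower, beside 5.6% and 2.98% of all genes, or 1 to 2 in each direction without any 1 library. Isg15, a ubiquitin-like modifier, stood at 501, 595, 559 and 387 CPM in LPS pull-downs and at 58.9, 72.2, 94.1 and 62.1 CPM in IgG1, an enrichment of 2.86. Its groups did not overlap.

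Slfn2 (5.01), Gbp5 (4.20), the immunoproteasome subunit Psmb8 (3.69), Oasl1 (3.37), Stat2 (1.53) and Irf7 (1.22) were enriched, and Stat2 was the gene with a gain, of 1.32. In IgG1, Oasl1 was higher after LPS by 3.80 and Slfn2 by 2.92. The antiviral enzyme Rsad2 stood at 226, 216, 179 and 115 CPM in pull-down and at 113, 120, 113 and 68 CPM in IgG1, with overlap. Its enrichment of 0.85 was lost with DESeq2 size factors (0.19) and total counts (0.29), while its IgG1 level was higher after LPS by 4.16 ± 0.39. The GTPase Iigp1 was below background after LPS, with 5.27, 5.59, 9.5 and 4.32 CPM against 19.1, 12.8, 19.1 and 10.3 CPM, at -1.27 ± 0.37, and its IgG1 level was higher by 3.37 ± 0.58. Of the list, 1 gene was lower without LPS pull-down 1, 2 or 4 or without LPS IgG1 1 or 3.

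Acute-phase and secreted proteins were higher in 16 of 22 tested and lower in 2, with a median of 1.74 against 0.45 after PBS, and with DESeq2 size factors 12 were higher and 4 lower. Summed over the list, levels were 16800 to 25200 CPM in LPS pull-downs and 4080 to 6480 CPM in LPS IgG1. Saa3, serum amyloid A 3, stood at 2180, 2810, 2410 and 2000 CPM in LPS pull-downs and at 61.7, 80.2, 136 and 70.2 CPM in IgG1, against 9.5, 5.26 and 13 CPM in PBS pull-downs. Enrichment was 4.79 ± 0.40, and the IgG1 level was higher after LPS by 3.95. Of the 22 genes 10 were higher in LPS IgG1 than in PBS IgG1, beside 1% of all genes.

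The transcription factor Cebpb was at 4.37, with a difference from PBS of 1.90. The metallothionein Mt1 stood at 6000, 8350, 6880 and 8380 CPM against 1840, 1860, 2890 and 2190 CPM, an enrichment of 1.76 and a difference of 1.59, and Mt2 was at 1.73 with a difference of 1.93. Lcn2, the iron-siderophore carrier lipocalin 2, stood at 130, 191, 196 and 111 CPM in pull-down and at 85.8, 115, 94.1 and 64.3 CPM in IgG1, with overlap. Its enrichment of 0.82 was lost with DESeq2 size factors (0.16) and total counts (0.25), and its background was higher by 3.54 ± 0.37. The protease Adamts1 was lower (-1.49). In enrichment 7 of the 22 were higher after LPS and 0 lower, beside 5.6% and 2.98% of all genes. The count of 7 was 3 without PBS pull-down 2 or without PBS IgG1 3. The count of lower members in pull-down was 1 without LPS pull-down 1 or LPS IgG1 3.

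Adhesion and endothelial activation genes were higher in 6 of 9 tested and lower in 2. Icam1, the ligand of leukocyte integrins, was enriched by 4.61, and Sbno2, a corepressor downstream of STAT3, by 3.75 with a difference from PBS of 2.30. Lrg1 was at 1.50. Plvap (-1.29) and the chemokine-binding receptor Ackr1 (-1.35), both made by venous endothelium, were lower. The list had 3 genes with a higher enrichment after LPS, or 1 without PBS IgG1 3, beside 5.6% of all genes.

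Of 14 glucocorticoid-responsive genes 8 were higher and 4 lower, beside 37.6% and 35.3% of all genes, so that the lower count was near that share. The median was 0.92 against 0.08 after PBS. In enrichment 4 were higher after LPS, beside 5.6% of all genes. Dusp1, a MAP kinase phosphatase, stood at 82.4, 116, 81.5 and 95.1 CPM in LPS pull-downs and at 43.3, 34.5, 47.7 and 43.6 CPM in IgG1, with no overlap, at 1.15 ± 0.19. After PBS it was below background at -1.51, a difference of 2.66 ± 0.34. The circadian factor Nfil3 (3.62, a difference of 2.81), the cell cycle inhibitor Cdkn1a (1.33, a difference of 1.96) and Per1 (1.19, a difference of 1.34) completed the 4. Fkbp5, a chaperone of the glucocorticoid receptor, was enriched by 2.82. Klf9 (-1.23), Zbtb16 (-1.47) and the lipid droplet protein Plin4 (-3.10) were lower.

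Immediate early genes were called in both directions. Of 23 tested 14 were higher and 7 lower, beside 37.6% and 35.3% of all genes, so that the lower count was near that share. The median was 0.91 against -0.56 after PBS, and with DESeq2 size factors 11 were higher and 9 lower. Enrichment was higher after LPS in 11 and lower in 0, beside 5.6% and 2.98% of all genes. Ier2 stood at 327, 407, 246 and 250 CPM in LPS pull-downs and at 44.7, 53.7, 57.3 and 40.7 CPM in IgG1. It was enriched by 2.67 ± 0.18 after LPS and was below background at -0.80 after PBS, a difference of 3.47 ± 0.29. Ier3 (2.53, a difference of 3.01), the AP-1 subunit Junb (2.73, a difference of 1.83) and the phosphatase Dusp2 (3.72) were enriched. Among the 7 genes lower in pull-down than in IgG1 after LPS were Fos (-0.76), Egr1 (-0.97), Npas4 (-1.44), Arc (-1.51) and Nr4a2 (-2.66). After PBS 9 of the list were lower, beside 32% of all genes.

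Genes of disease-associated microglia, a state described in models of neurodegeneration, were higher in 16 of 18 tested and lower in 1, with a median of 3.30 against 3.01 after PBS. Spp1, osteopontin, stood at 75.1, 136, 126 and 180 CPM in LPS pull-downs and at 14.2, 12.8, 5.46 and 9.61 CPM in IgG1. Its groups were separated, at 3.50 ± 0.31, while after PBS it was at background (-0.02 ± 0.47), a difference of 3.52 ± 0.60. The cathepsin inhibitor Cst7 stood at 51.7, 64, 61.1 and 78.9 CPM against 1.42, 0.802, 0 and 0 CPM. Its ratio of 94.9 had a 95% counting interval of 32.3 to 462, and the difference from PBS was 3.22. Between pull-downs Cst7 was higher after LPS by 0.95, from 36.5, 22.3 and 39 CPM after PBS. Its IgG1 level differed by -2.27, with 13 reads after PBS and 3 after LPS, and was not called. Cd52 (6.64) and Apoe (2.04) were enriched, the lipase Lpl was not called (0.13 ± 0.35), and Ank was lower (-0.85).

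**Figure D4:**
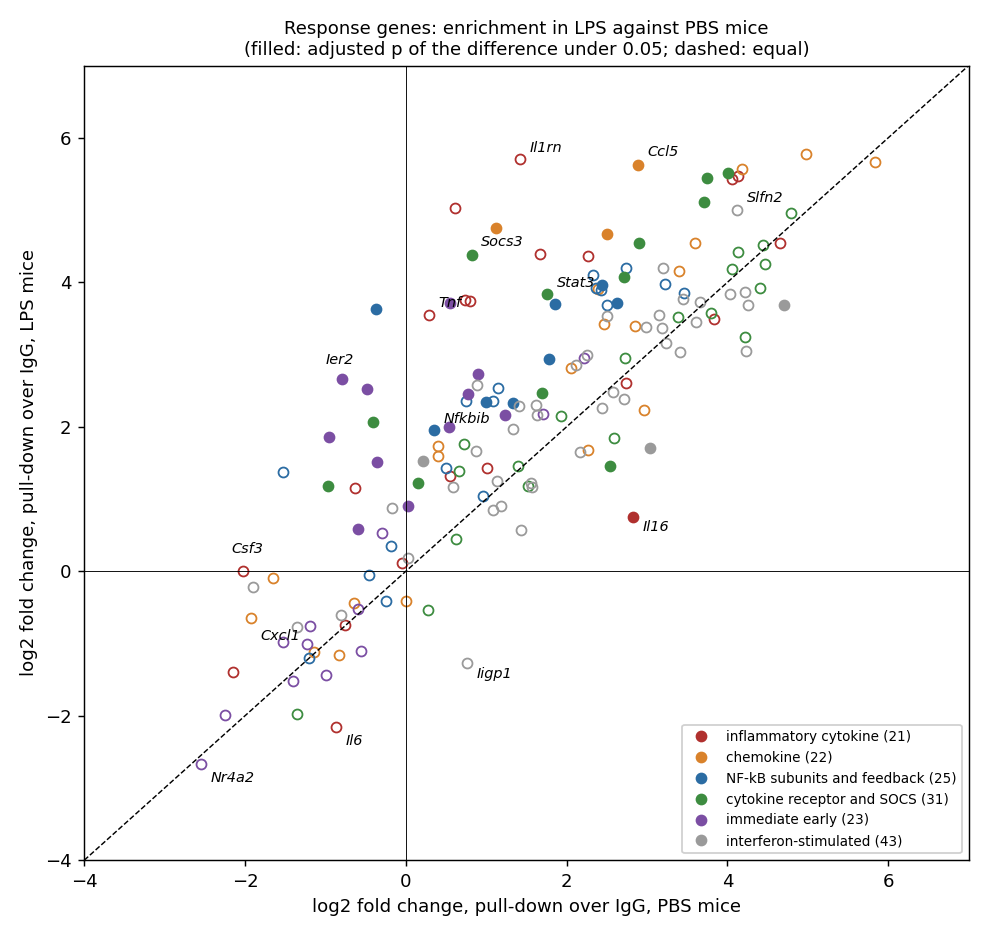
Each point is a gene of 6 response lists, with its log2 enrichment over IgG1 after PBS on the horizontal axis and after LPS on the vertical axis, filled where the difference was called, and the dashed line marks equal values. Filled points lie mostly above the line, with Socs3 and Ier2 moving from near or below 0 after PBS to positive values after LPS.

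Over all genes, the 12 highest enrichments after LPS were chosen among called genes that averaged 10 CPM or more and whose libraries did not overlap. Vnn3, a pantetheinase, had 173 reads in pull-down and 0 in IgG1 and was at least 38.8-fold higher, a bound that sets the IgG1 group at 3 reads in all. Ccr7, the homing receptor of migrating dendritic cells, was at least 16.4-fold higher by the same bound, with 73 pull-down reads and 0 in IgG1. The ficolin Fcna had 333 reads against 1, a ratio of 224 with a 95% counting interval of 40 to 8880. Lrrc25 (7.16), the sialic acid receptor Siglece (6.35), the haematopoietic signalling protein Hcls1 (6.27) and Mmp9 (6.36) followed. Mmp9 stood at 78.4, 80.1, 71.3 and 90.8 CPM in LPS pull-downs and at 0, 0.802, 2.73 and 0.739 CPM in IgG1, and at 129, 95.9 and 101 CPM in PBS pull-downs.

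By the same rule, the 12 lowest values were headed by Gabrb2. Gabrb2, a subunit of the GABA-A receptor, stood at 1.65, 0, 2.72 and 3.24 CPM in pull-down and at 97.9, 64.1, 66.8 and 39.2 CPM in IgG1, an enrichment of -5.19. The cell adhesion proteins Opcml and Cadm2 were at -4.99 and -4.29 and the transcription factor Npas3 at -4.62. Gdap1 (-4.78), Hecw1 (-4.63), Mal2 (-4.55), Gpr158 (-4.41), Fut9 (-4.39) and Nwd2 (-4.14) were lower too. For Scai the ratio was 0.0153, with a 95% counting interval of 0.000379 to 0.0898.

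Some genes outside the lists gained enrichment after LPS. Marcksl1, a regulator of the actin skeleton, stood at 636, 970, 667 and 581 CPM in LPS pull-downs and at 44.7, 36.1, 40.9 and 28.8 CPM in IgG1, and at 34.3, 35.5 and 21.4 CPM in PBS pull-downs. Its difference was 4.07 ± 0.43. The lipid kinase Sphk1 (4.16 ± 0.62), with 49.1, 96.3, 49.6 and 44.3 CPM in LPS pull-downs and 3.65, 2.63 and 2.29 CPM in PBS pull-downs, and the serine kinase Pim1 (3.75 ± 0.57) gained as well. The receptor Cd244 gained 5.96 ± 1.28 from very few background reads, with 25, 30.4, 25.1 and 40 CPM in LPS pull-downs and 0, 1.6, 0 and 0.739 CPM in IgG1.

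Others lost enrichment. Slc29a3, a lysosomal nucleoside transporter, stood at 83.4, 80.7, 78.1 and 108 CPM in LPS pull-downs against 470, 501 and 410 CPM in PBS pull-downs, with 18.4, 20.8, 23.2 and 25.1 CPM in LPS IgG1, a difference of -2.58. It stayed above background. Asb2, a ubiquitin ligase subunit, fell from 188, 218 and 149 CPM in PBS pull-downs to 26.7, 26.7, 27.2 and 28.1 CPM in LPS pull-downs, with a difference of -2.90. Osgin1 (-3.60), Cd79b (-3.47), H6pd (-2.84), Rnf144b (-2.84), Ebf3 (-2.75), Natd1 (-2.67) and Tspan18 (-2.57) followed. Between pull-downs Osgin1 changed by -0.82 and was not called, while its IgG1 level differed by 2.77, with 2 reads after PBS and 21 after LPS. H6pd changed by -0.97 between pull-downs and by 1.87 between IgG1 groups, with 5 and 25 IgG1 reads. Pull-down changes were larger for Cd79b (-2.51), Rnf144b (-3.64), Ebf3 (-2.73), Natd1 (-2.29) and Tspan18 (-1.52).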

How the data were processed

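The authors deposited 1 table for the LPS experiment, holding unnormalised exon read counts (whole numbers) for 24421 genes, and every column was mapped to a sample by its name. Per the submitters' processing notes, bcl2fastq, HISAT 0.1.5, HOMER and the build mm9 were used, with no role given. Annotation, strand setting and the handling of duplicates are not given in the sources used here. Some families of similar genes (Gbp, Slfn, Oas, Saa) may share reads.

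The counts of 28 libraries in 8 groups were fitted with edgeR 4.0.16 in R 4.3.3 (filterByExpr, minimum count 10, TMM, robust quasi-likelihood F test), and p values were Benjamini-Hochberg adjusted over 11444 genes. The fit took all 8 groups of the experiment, sorted cells included, to share the estimate of the spread. Comparisons were LPS pull-down minus LPS IgG1, the same after PBS, their interaction, and LPS minus PBS within each kind of library. Scripts were tested on simulated data. The 27 gene lists held 599 genes, 597 of them matched by symbol, with Acod1 matched under its older symbol Irg1. The comparisons and lists were chosen with earlier results of these data known, so that they are no independent support of what was seen before.

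Named genes were the 12 with the highest and the 12 with the lowest log2 value per comparison among those called that averaged 10 CPM or more and had no overlap between libraries (no condition on overlap for the interaction), plus list members. Some genes of the rule are left out because single libraries decided their value. A group with no reads was set to 3 reads in all, which makes its fold a lower bound, and with 1 to 3 reads a ratio per depth is given with an exact 95% interval. As reads were not identified as single molecules, these bounds and intervals hold counting error and nothing else. Alternatives were DESeq2 1.42.0 size factors, total counts, the DESeq2 Wald test, other filters, fewer libraries in the fit, a fold threshold (glmTreat), a replicate block and leaving out each library. Some genes are not reported here.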

Additional observations from a re-analysis of the deposited data

Results flagged for a closer look

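A single library stood apart from the others of its group for Rpl22 in LPS pull-down 4 (263 CPM) and for Rtn4rl1 in LPS pull-down 1 (89 CPM), by the gap to the nearest library relative to the range of the group. These were 2 of 50 groups of 4 libraries examined, and chance flags about 1 in 20.

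The other results differed between treatments by the interaction test, as log2 enrichment after LPS minus that after PBS. Among homeostatic genes and factors these were Gpr34 (-3.17), Rtn4rl1 (-2.49), Sall1 (-1.95), P2ry12 (-1.84), Maf (-1.71), Cx3cr1 (-1.46), Pmepa1 (-1.40), P2ry13 (-1.25), Mef2c (-0.88), Bin1 (-0.80), Siglech (-0.77) and Klf4 (2.64). Among NF-kB, sensing and receptor genes they were Map3k8 (2.87), Cd14 (1.57), Nfkbib (1.60), Tnip1 (1.34), Rela (1.08), Nfkbia (0.99), Socs3 (3.56), Socs2 (2.47), Stat3 (2.07), Il4ra (1.50), Jak1 (1.07) and Il6st (-1.09).

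Secreted and effector genes were Ccl5 (2.74), Ccl4 (2.17), Il16 (-2.06), Gas6 (-1.33), Stat2 (1.32), Cebpb (1.90), Mt1 (1.59), Mt2 (1.93), Sbno2 (2.30), Spp1 (3.52) and Cst7 (3.22). Early and glucocorticoid-responsive genes were Ier2 (3.47), Ier3 (3.01), Junb (1.83), Nfil3 (2.81), Dusp1 (2.66), Cdkn1a (1.96) and Per1 (1.34). Outside the lists these were Cd244 (5.96), Sphk1 (4.16), Marcksl1 (4.07), Pim1 (3.75), Osgin1 (-3.60), Asb2 (-2.90), H6pd (-2.84), Rnf144b (-2.84), Ebf3 (-2.75), Natd1 (-2.67), Slc29a3 (-2.58) and Tspan18 (-2.57), and the lymphocyte gene Cd79b (-3.47).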

How the results depend on the processing

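After LPS, 8349 genes were called, 7391 to 9246 under other scalings, the Wald test, fewer libraries in the fit, a filter of at least 1 read and the replicate block, 5343 with a minimum count of 50 and 4179 with a fold threshold. After PBS the count was 7434, or 4928 and 3280 under the last 2. The interaction had 982 called genes, or 82 with the fold threshold. Between IgG1 groups 132 were called, 213 with the filter of at least 1 read and 28 with the fold threshold. Between pull-downs of LPS and PBS 3037 were called, or 500 with the fold threshold. Homeostatic genes with lower enrichment after LPS were 8, or 13 with DESeq2 size factors, 13 with the Wald test and 2 with the fold threshold. Homeostatic genes higher in LPS pull-down were 34, and 31 to 34 under the alternatives run.

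Leaving out 1 library gave 7904 to 8207 genes for LPS, 6873 to 7229 for PBS, 743 to 975 for the interaction, 2406 to 2961 between pull-downs, 34 to 34 homeostatic genes higher and 6 to 10 with lower enrichment. Between IgG1 groups it gave 86 without LPS IgG1 2 to 172 without LPS IgG1 1. Of the values of single genes in the text, 4532 alternatives kept direction and call, 127 lost the call, 22 gained it and 2 reversed. The reversed gene was Serpine2, a homeostatic gene at 0.65 after LPS and at -0.0133 with DESeq2 size factors and -0.0101 with the Wald test. The cause was not tested.

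Replicate numbers were shared between groups, but the deviations of same-numbered pull-down and IgG1 libraries correlated at 0.090, 0.127, -0.040 and 0.205 after LPS and 0.019, 0.139 and 0.185 after PBS (across 4902 genes), so that the numbers were not used as pairs. In 6 of 7 pull-downs the best match was the IgG1 library of its own number, so that a pairing by number is not settled. Per the design text, sorting and pull-down used the same animal, without saying that the number marks it. The main fit took all 28 libraries as independent. With the replicate number as a block, 8411 genes were called after LPS, 7489 after PBS, 1108 in the interaction, 107 between IgG1 groups and 2067 between pull-downs, and homeostatic genes with lower enrichment were 11. The block also brought a call for the enrichment of Cxcl1 after LPS (-0.70) and for the differences between treatments of Il1b (2.88) and Il1rn (4.37), and the difference of Cxcl1 between IgG1 groups was then not called (1.94, adjusted p = 0.227). It changed no other call of a gene named in the text. The depth of the LPS IgG1 libraries limits what can be said of genes with few background reads, such as Tnf, Il6, Cst7 and Cd244.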

Other observations

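RNAs that stay in the nucleus and lists of less abundant cell types add to the picture after LPS. All 8 nuclear long noncoding RNAs tested were lower in pull-down than in IgG1, with a median of -1.65, among them Malat1 (-2.14), Neat1 (-1.67) and Meg3 (-1.62). Their summed level was 288 to 359 CPM in pull-down against 713 to 1020 CPM in IgG1. Of 8 fibroblast and meningeal genes 6 were lower and 0 higher, with a median of -0.79, and of 3 pericyte and smooth muscle genes 1 was lower, or 2 without LPS IgG1 4. Ependymal and choroid plexus genes were lower in 3 of 4, or in 0 to 1 of 3 without LPS pull-down 1, 2 or 4 or without LPS IgG1 1 or 2. Of 5 erythroid genes 2 were lower, and 0 without LPS pull-down 1, 2 or 3 or without LPS IgG1 3 or 4. Over all genes tested 35.3% were lower, near the shares of the pericyte and erythroid lists. Haemoglobin genes have near-identical copies, so that their values are uncertain.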
